A study of Mus musculus with 36 samples.

Results

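Kidneys of high-fat-fed mice taken at zeitgeber time (ZT) 20 were compared with kidneys taken at ZT8. ZT counts hours from lights on, so ZT8 falls in the light and ZT20 in the dark of the 12 h light and 12 h dark cycle. The members of the comparison were 3 libraries at each time, 6 of the 36 libraries in the series, chosen by diet and harvest time alone. All mice were wild-type males of strain C57BL/6J (C57BL/6 in the series text), put at 6 weeks of age on ad libitum normal chow or high-fat diet, and the labels give 16 weeks as the time of harvest. Each of the 12 groups, 2 diets at ZT0, 4, 8, 12, 16 and 20, had 3 mice, and the labels name no engineered allele or drug. The tag that holds the diet also names ZT3, which is none of the harvest times. By their label numbers the ZT8 mice were replicates 1, 2 and 5 and the ZT20 mice were replicates 1, 3 and 4. The fat content of the diet, and whether the mice shared cages, litters or batches, are not stated in the labels or the series text.

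The mammalian clock is a feedback loop. BMAL1, encoded by Arntl, pairs with CLOCK or NPAS2 and drives genes through E-box sequences, among them the Per, Cry and Nr1d genes, whose proteins then repress this activation or Arntl itself. In the kidney the loop is known to time the transport of salt, water and amino acids, and feeding, body temperature and adrenal hormones also carry daily signals to the tissue.

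Values are FPKM, read fragments scaled to transcript length and library size. FPKM of whole kidney cannot tell fewer cells of a type from less RNA per cell. Total reads are unknown. The relative depth estimated from the steps between low values was 1.30, 0.791 and 1.18 in the ZT8 libraries and 0.931, 0.576 and 1.20 in the ZT20 libraries, so counting error at low values was largest in ZT20 replicate 3. The ZT8 and ZT20 libraries stood apart in 2 library-wide measures. Against a common reference, the median log2 ratio of genes was 0.090, 0.023 and -0.012 at ZT8 and -0.094, -0.052 and -0.075 at ZT20. The slope of values against the GC content of transcripts was -0.27, -0.16 and -0.14 log2 per 10 points of GC at ZT8 and -0.02, -0.04 and 0.07 at ZT20. Neither measure overlapped between the times. In the normal chow libraries the median log2 ratio was 0.037, 0.005 and 0.038 at ZT8 and -0.048, -0.037 and -0.067 at ZT20. These ratios did not overlap either, whereas the GC slopes of normal chow did. Whether the shifts are technical was not tested. Counts are therefore also given after rescaling the libraries to a common median ratio and, for all genes, after removing each library's GC trend. The part of depth, scale and GC in the results was otherwise not tested.

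Between ZT8 and ZT20, 381 genes rose and 1515 fell among 11076 genes tested (limma on log2(FPKM + 0.5), Benjamini-Hochberg adjusted p under 0.05). These are 3.44% and 13.7% of the genes tested, or 17.1% in either direction. The median difference over all genes tested was -0.12 log2, ZT20 minus ZT8. After rescaling, which moved this median to -0.02, 857 genes were higher (7.74%) and 753 were lower (6.80%). The excess of falls seen in the deposited values was not seen after rescaling. Rescaling takes the typical gene as unchanged, so it removes such an excess largely by design, and the loss is not a result. All 381 rises and 753 of the 1515 falls were called in the same direction on both scales (10.2% of the genes tested). With the GC trend removed 308 genes were higher and 1480 lower, and the median transcript GC of the called genes was 54.8% for rises and 46.7% for falls, against 50.6% for genes not called. Most changes were small. The median fold was 1.34 among rises and 1.37 among falls, and 16 rises and 43 falls reached 2-fold. The groups did not overlap in 1100 genes with higher values at ZT20 (9.93%) and in 3588 with lower values (32.4%), whether or not they were called.

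The counts depended on single libraries. Without ZT8 replicate 1 there were 148 rises and 331 falls, and without ZT20 replicate 4 there were 119 and 469. The total was 911 without ZT8 replicate 2, 1037 without ZT20 replicate 1 and 1037 without ZT20 replicate 3. Called in every fit that left out 1 of the 6 libraries were 91 rises and 277 falls. Of these, 87 and 264 were also called after rescaling and with the GC trend removed.

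**Figure D1:**
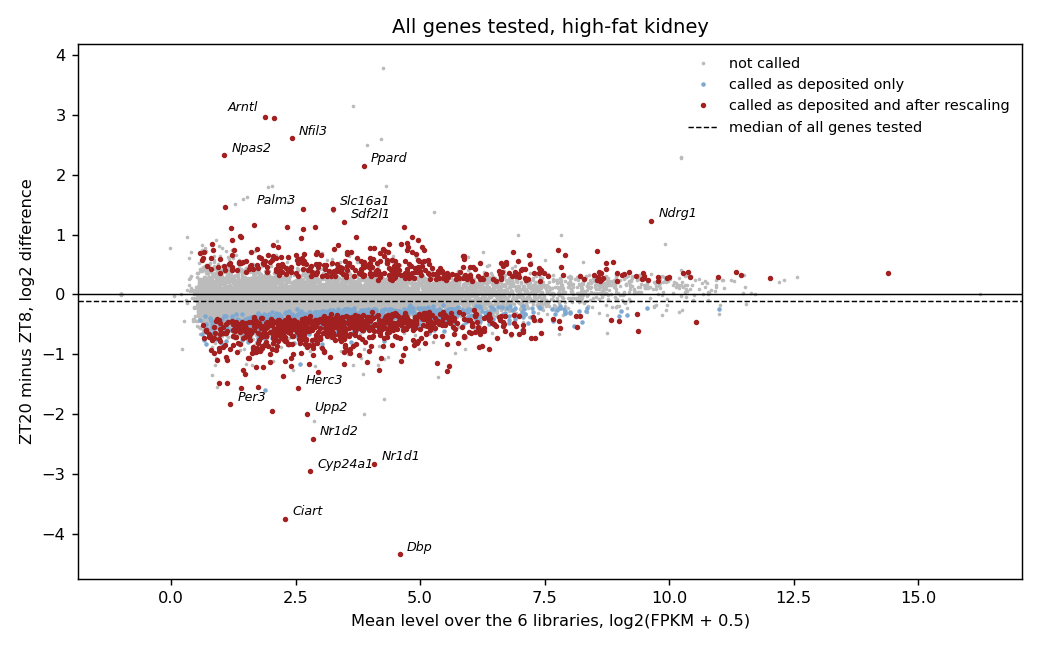
Difference between ZT20 and ZT8 (y axis, log2) of each of the 11076 genes tested against its mean level over the 6 libraries (x axis, log2(FPKM + 0.5)). Red points passed the test on the deposited and the rescaled values, blue points on the deposited values only; blue points lie below 0, and the dashed line is the median of all genes, -0.12.

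The clock genes are described by their role in the loop, after the promoter sequences of 4 of them that differed between the times. The sequences are shown because each holds a motif through which clock factors are known to act, and because the pairs differ in direction: Nfil3 and Cry1 were higher at ZT20, Ciart and Per3 lower. Each sequence is the 250 bases before the start of the gene in RefSeq (GRCm38.p6), 5′ to 3′ on the gene's strand, which is the minus strand for all 4. Capitals mark a RORE in Nfil3 (TGACCTA, the opposite strand of TAGGTCA, which REV-ERB proteins are known to bind), E-boxes in Cry1 and Ciart (CACGTG), and D-boxes in Per3 (TTANGTAA, known to bind DBP, TEF, HLF and NFIL3).
Nfil3, chr13:52981040-52981289: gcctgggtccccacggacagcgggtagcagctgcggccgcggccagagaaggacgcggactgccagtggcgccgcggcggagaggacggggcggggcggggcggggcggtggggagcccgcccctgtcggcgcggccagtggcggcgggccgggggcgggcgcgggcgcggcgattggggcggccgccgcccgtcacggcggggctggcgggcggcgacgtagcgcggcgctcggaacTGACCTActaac
Cry1, chr10:85185055-85185304: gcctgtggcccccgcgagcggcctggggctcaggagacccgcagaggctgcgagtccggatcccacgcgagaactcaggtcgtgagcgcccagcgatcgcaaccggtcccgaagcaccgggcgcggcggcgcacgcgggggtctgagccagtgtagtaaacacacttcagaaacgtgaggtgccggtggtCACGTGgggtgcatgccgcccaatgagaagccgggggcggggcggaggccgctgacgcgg
Ciart, chr3:95882229-95882478: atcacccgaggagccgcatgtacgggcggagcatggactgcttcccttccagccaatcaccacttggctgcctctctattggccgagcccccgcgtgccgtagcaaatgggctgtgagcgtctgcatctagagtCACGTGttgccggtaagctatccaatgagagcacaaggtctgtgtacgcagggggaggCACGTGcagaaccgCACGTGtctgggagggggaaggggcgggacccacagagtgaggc
Per3, chr4:151044666-151044915: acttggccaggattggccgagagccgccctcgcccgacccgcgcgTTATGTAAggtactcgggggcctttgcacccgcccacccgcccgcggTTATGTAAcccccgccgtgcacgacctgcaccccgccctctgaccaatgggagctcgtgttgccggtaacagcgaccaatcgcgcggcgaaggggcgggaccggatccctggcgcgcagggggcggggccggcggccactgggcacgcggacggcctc

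The RORE of Nfil3 began 12 bases before the start and the E-box of Cry1 began 60 bases before it. Ciart held 3 E-boxes, at 116, 58 and 44 bases before the start, and Per3 held 2 D-boxes, at 205 and 158 bases. On either strand of the same window, 6.86% of the 27025 genes in the table held CACGTG, 2.44% held TTANGTAA and 2.55% held TAGGTCA. Of 11 clock and output genes that fell and were in the table, Per1, Ciart and Tef held an E-box and Per3 a D-box. Of 4 that rose, Cry1 held an E-box and Nfil3 a RORE. A match describes these letters in this window and is not evidence of binding.

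Of the 5 activators of the loop tested, 3 rose and none was called lower. Arntl (chr7:113207465-113314126, plus strand, GRCm38) was at 0.438, 0.248 and 0.333 FPKM at ZT8 and at 6.55, 6.201 and 5.44 FPKM at ZT20. Every ZT20 value was above every ZT8 value, and the difference was 2.97 ± 0.18 log2 (SE, limma, adjusted p = 3.69e-08). Npas2, the partner that can replace CLOCK, went from 0.126, 0.244 and 0.226 FPKM to 3.39, 2.85 and 2.75 FPKM, again without overlap (2.32 ± 0.21 log2, adjusted p = 6.72e-06). Clock differed by 0.32 ± 0.14 log2 and did not pass (adjusted p = 0.102), although it did after rescaling (adjusted p = 0.0461). Rora, a nuclear receptor that acts through the RORE, was at 3.02 ± 0.383 FPKM at ZT8 and at 2.06 ± 0.159 FPKM at ZT20 (SD, n = 3), lower without overlap, and did not pass (-0.46 ± 0.18 log2, adjusted p = 0.0846). Rorb was at a mean of 0.0400 FPKM over the high-fat libraries and was not tested.

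The repressors mostly went the other way. Of 9 tested, 7 fell and 1 rose, with a median of -0.83 log2 against -0.12 for all genes. Nr1d1, which encodes the REV-ERBα repressor of Arntl, was at 31.6, 25.3 and 30.9 FPKM at ZT8 and at 4.17, 3.66 and 3.19 FPKM at ZT20, a mean of 29.2 ± 3.43 against 3.67 ± 0.494 FPKM (SD, n = 3) (-2.83 ± 0.16 log2, limma adjusted p = 2.79e-08). Its relative Nr1d2 went from 12.9, 11.8 and 10.1 FPKM to 1.76, 1.88 and 1.66 FPKM (-2.41 ± 0.18 log2, adjusted p = 7.04e-07). In both genes the lowest ZT8 value was above the highest ZT20 value by several fold.

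Ciart, a repressor of the BMAL1 and CLOCK pair, was at 6.22, 11.9 and 7.57 FPKM at ZT8 and at 0.0536, 0 and 0.499 FPKM at ZT20 (-3.75 ± 0.26 log2, adjusted p = 2.02e-07). The library listed at 0 was the shallowest of the 6, and the fitted fold of so low a gene depends on the pseudocount. The period genes differed among themselves. Per3 went from 3.84, 2.77 and 2.57 FPKM to 0.581, 0.444 and 0.444 FPKM (-1.83 ± 0.17 log2, adjusted p = 8.65e-06). Per1 fell by 0.83 ± 0.20 on the log2 scale (adjusted p = 0.0157), a call lost without ZT8 replicate 2, ZT20 replicate 1 or ZT20 replicate 4. Per2 had overlapping groups, at 2.98 ± 0.520 and 2.14 ± 0.440 FPKM (SD, n = 3), and did not pass (adjusted p = 0.118). In the high-fat kidneys both Per1 and Per2 were highest at ZT12, between the times compared.

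Among the cryptochromes, Cry1 was the repressor that rose, from 1.43, 0.929 and 0.605 FPKM to 2.42, 2.64 and 2.81 FPKM (1.11 ± 0.24 log2, adjusted p = 0.00886), whereas Cry2 fell by 0.45 ± 0.13 on the log2 scale (adjusted p = 0.0267). The call of Cry2 was lost after rescaling (adjusted p = 0.0541) and without ZT8 replicate 1, ZT8 replicate 2, ZT20 replicate 1 or ZT20 replicate 3. Bhlhe40, which represses E-box genes, fell by 0.63 ± 0.17 on the log2 scale (adjusted p = 0.0205), a call lost without ZT8 replicate 1, ZT8 replicate 2 or ZT20 replicate 4. Its relative Bhlhe41 was under the minimum level and was not tested. The count of falling repressors was 4 without ZT8 replicate 2, and 6 after rescaling.

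The output factors carry the rhythm from the loop to other genes. They included the gene with the largest fitted log2 fall among the genes named here. By the ratio of means the fall of Ciart was larger, at 46.4-fold, from values near 0 at ZT20. Dbp, an activator at the D-box, was at 37.8, 54.5 and 44.3 FPKM at ZT8 and at 1.64, 2.03 and 1.58 FPKM at ZT20, or 45.5 ± 8.42 against 1.75 ± 0.244 FPKM (SD, n = 3), a 26.0-fold difference of the means (-4.34 ± 0.23 log2, adjusted p = 1.41e-08). Tef, of the same family, went from 68.7, 65.8 and 62.1 FPKM to 27.3, 25.6 and 27.1 FPKM (-1.28 ± 0.14 log2, adjusted p = 4.00e-05). Nfil3, which represses at the same D-box, went the other way, from 1.02, 1.22 and 0.785 FPKM to 8.80, 9.86 and 7.39 FPKM (2.61 ± 0.34 log2, adjusted p = 0.000249). Neither direction had overlapping groups. Of 8 output factors tested, 6 fell and Nfil3 rose.

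The smaller falls were those of Usp2, a deubiquitinase (-0.57 ± 0.10 log2), Hlf, the third member of the Dbp family (-0.54 ± 0.12), Wee1, a kinase that restrains mitosis (-0.89 ± 0.23), and Nampt, an enzyme of NAD synthesis (-0.66 ± 0.20). Usp2 was called in every fit that left out a library. Hlf was lost without ZT8 replicate 1 (adjusted p = 0.0514), and Wee1 without ZT8 replicate 1, ZT8 replicate 2 or ZT20 replicate 4. Nampt was lost after rescaling (adjusted p = 0.0557) and without ZT8 replicate 1, ZT8 replicate 2, ZT20 replicate 1 or ZT20 replicate 4. Klf10 did not pass (adjusted p = 0.263). The number of output factors that fell was 3 without ZT8 replicate 1.

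**Figure D2:**
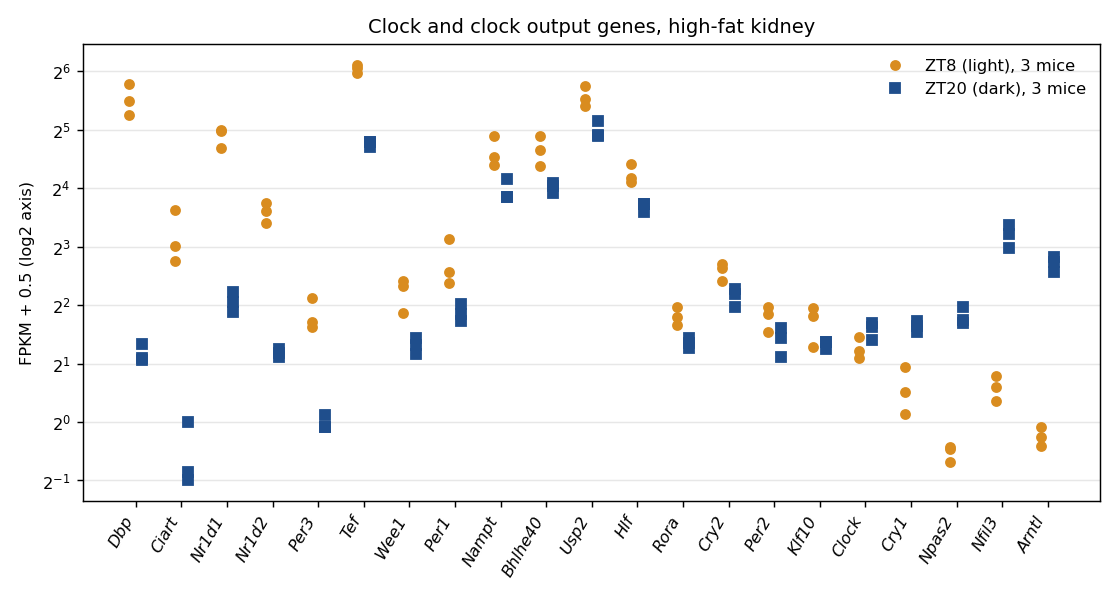
Values of clock and output genes (y axis, FPKM + 0.5 on a log2 axis) in each of the 3 ZT8 libraries (orange circles) and 3 ZT20 libraries (blue squares). Dbp, Ciart and Nr1d1 at the left are highest at ZT8 and Arntl, Nfil3 and Npas2 at the right are highest at ZT20, with no overlap, while the groups of Per2, Klf10 and Clock overlap.

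The 12 largest rises were taken among called genes, clock genes included, with a mean of at least 5 FPKM. Only genes whose groups did not overlap were taken, so the lack of overlap is a condition and not a result. Ppard, a nuclear receptor for fatty acids, led the rises. It was at 4.33, 5.00 and 5.37 FPKM at ZT8 and at 23.9, 22.0 and 24.2 FPKM at ZT20 (2.15 ± 0.18 log2, adjusted p = 1.93e-06). Slc16a1, which carries lactate, pyruvate and ketone bodies across membranes, went from 4.6, 4.39 and 4.95 FPKM to 13.0, 14.7 and 12.5 FPKM (1.43 ± 0.15 log2, adjusted p = 1.99e-05). Ndrg1, a gene induced by low oxygen and other stress, was the most abundant of them, at 452, 583 and 406 FPKM at ZT8 and at 1154, 1132 and 1060 FPKM at ZT20 (1.23 ± 0.11 log2, adjusted p = 6.69e-06). The ZT20 level was more than double the ZT8 level in each of the 3 genes.

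Also among the largest rises were Palm3, a paralemmin, (1.42 log2), the p53-induced RNA-binding gene Rbm38 (1.10), the mitochondrial glutamate carrier Slc25a22 (0.96), the N-acyltransferase Acnat2 (0.96), the small GTPase Rasl11a (0.94), the chromatin remodelling subunit Bcl7c (0.90), and the endoplasmic reticulum proteins Sdf2l1 (1.22) and Manf (0.85). All 12 of the largest rises were called in each fit that left out a library, after rescaling and with the GC trend removed.

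The 12 largest falls held Dbp, Nr1d1, Nr1d2 and Tef of the clock lists. Next to Dbp in size stood Cyp24a1, the enzyme that inactivates vitamin D hormone, at 12.0, 10.96 and 12.0 FPKM at ZT8 and at 0.884, 0.533 and 2.17 FPKM at ZT20 (-2.96 ± 0.52 log2, adjusted p = 0.00303). Upp2, a uridine phosphorylase, went from 11.5, 10.3 and 8.70 FPKM to 2.45, 1.91 and 2.10 FPKM (-2.001 ± 0.22 log2, adjusted p = 4.00e-05). Slc6a19, the transporter that recovers neutral amino acids in the proximal tubule, went from 58.2, 87.4 and 54.6 FPKM to 30.2, 28.8 and 25.7 FPKM (-1.20 ± 0.15 log2, adjusted p = 0.000144). ZT8 replicate 2 held the highest Slc6a19 value, and the gene was still called without it.

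Herc3, a gene of the ubiquitin ligase family (-1.56 log2), Ell3, a transcription elongation factor (-1.29), and Tsku, a secreted protein (-1.17), fell in each fit that left out a library. Gpm6a, a membrane glycoprotein, fell by 1.27 on the log2 scale, a call that was lost without ZT8 replicate 1, where it stood at 39.0 FPKM against 16.7 and 20.7 FPKM in the other ZT8 mice. Ccrn4l, the rhythmic gene also called nocturnin, had 5.36, 13.4 and 5.10 FPKM at ZT8 and 2.53, 4.24 and 2.35 FPKM at ZT20 (-1.16 ± 0.37 log2, adjusted p = 0.0418). Its call was lost after rescaling (adjusted p = 0.0637), with the GC trend removed, and without ZT8 replicate 1, ZT8 replicate 2, ZT20 replicate 1 or ZT20 replicate 4.

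In the list of endoplasmic reticulum chaperones and related genes 8 of 20 members rose and 4 fell, or 10 and 1 after rescaling. The rises numbered 7 or 8 in the fits that left out a library. The median was 0.13 log2 against -0.12 for all genes. For this list and those below, the shares of all genes tested were 3.44% rises and 13.7% falls, or 7.74% and 6.80% after rescaling. Calr, the calcium-binding chaperone calreticulin, was at 364, 378 and 402 FPKM at ZT8 and at 544, 542 and 578 FPKM at ZT20 (0.54 ± 0.07 log2, adjusted p = 0.000198). Hspa5, the central chaperone BiP, was at 108, 111 and 118 FPKM and at 172, 195 and 167 FPKM (0.66 ± 0.13 log2, adjusted p = 0.00595). Creld2, a secretory pathway protein, rose by 0.84 ± 0.12 log2 (adjusted p = 0.000482), and Hyou1, Hsp90b1 and Dnajb11, 3 further chaperones, by 0.58, 0.43 and 0.33 log2, the call of Dnajb11 being lost without ZT8 replicate 2 or ZT20 replicate 3.

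The list did not move as a whole. Herpud1, a component of the degradation machinery of the same organelle, was at 155, 169 and 144 FPKM at ZT8 and at 95.5, 103 and 95.6 FPKM at ZT20 (-0.66 ± 0.10 log2, adjusted p = 0.000977). Dnajb9, Atf6 and Edem1 also had lower values, but their calls were lost after rescaling. The number of members that fell was 4, and 1 without ZT8 replicate 1, ZT8 replicate 2, ZT20 replicate 1 or ZT20 replicate 4 and 2 without ZT20 replicate 3. Among 12 ATF4 targets tested, Slc3a2 rose and Cth fell, but among the 6 fits that left out a library Slc3a2 was called only without ZT8 replicate 2 and Cth only without ZT8 replicate 5.

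Of 23 cytosolic heat shock genes 6 rose and none fell, with 7 after rescaling, 9 with the GC trend removed and 4 to 7 when a library was left out. The median was 0.09 log2. Ahsa1, an activator of HSP90, went from 58.1, 58.6 and 61.6 FPKM to 79.9, 91.0 and 87.2 FPKM (0.53 ± 0.07 log2, adjusted p = 0.000359). Hspb1, a small heat shock protein, rose by 0.78 ± 0.14 log2 (adjusted p = 0.00303), and the HSP90 partners Fkbp4 and Stip1 by 0.40 and 0.39 log2. These 4 genes kept their call in each fit that left out a library. Hsp90ab1 and Hsf1, the factor that drives heat shock genes, rose by 0.22 and 0.35 log2, calls lost without ZT8 replicate 1, ZT8 replicate 2, ZT20 replicate 3 or ZT20 replicate 4, and for Hsp90ab1 also without ZT8 replicate 5.

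Cold-inducible and splicing genes were lower at ZT20 where they were called. Of 13 tested, 5 fell and none rose, with a median of -0.39 log2. Cirbp, the RNA-binding protein induced by mild cold, went from 32.0, 36.8 and 29.9 FPKM to 15.3, 15.7 and 22.2 FPKM (-0.89 ± 0.19 log2, adjusted p = 0.00741) and was called in each fit that left out a library. Its relative Rbm3 had a difference of -0.62 log2 and lost its call after rescaling, as did Srsf5, and 3 members remained. The count was 2 without ZT8 replicate 1 and 3 without ZT8 replicate 2 or any of the ZT20 replicates.

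**Figure D3:**
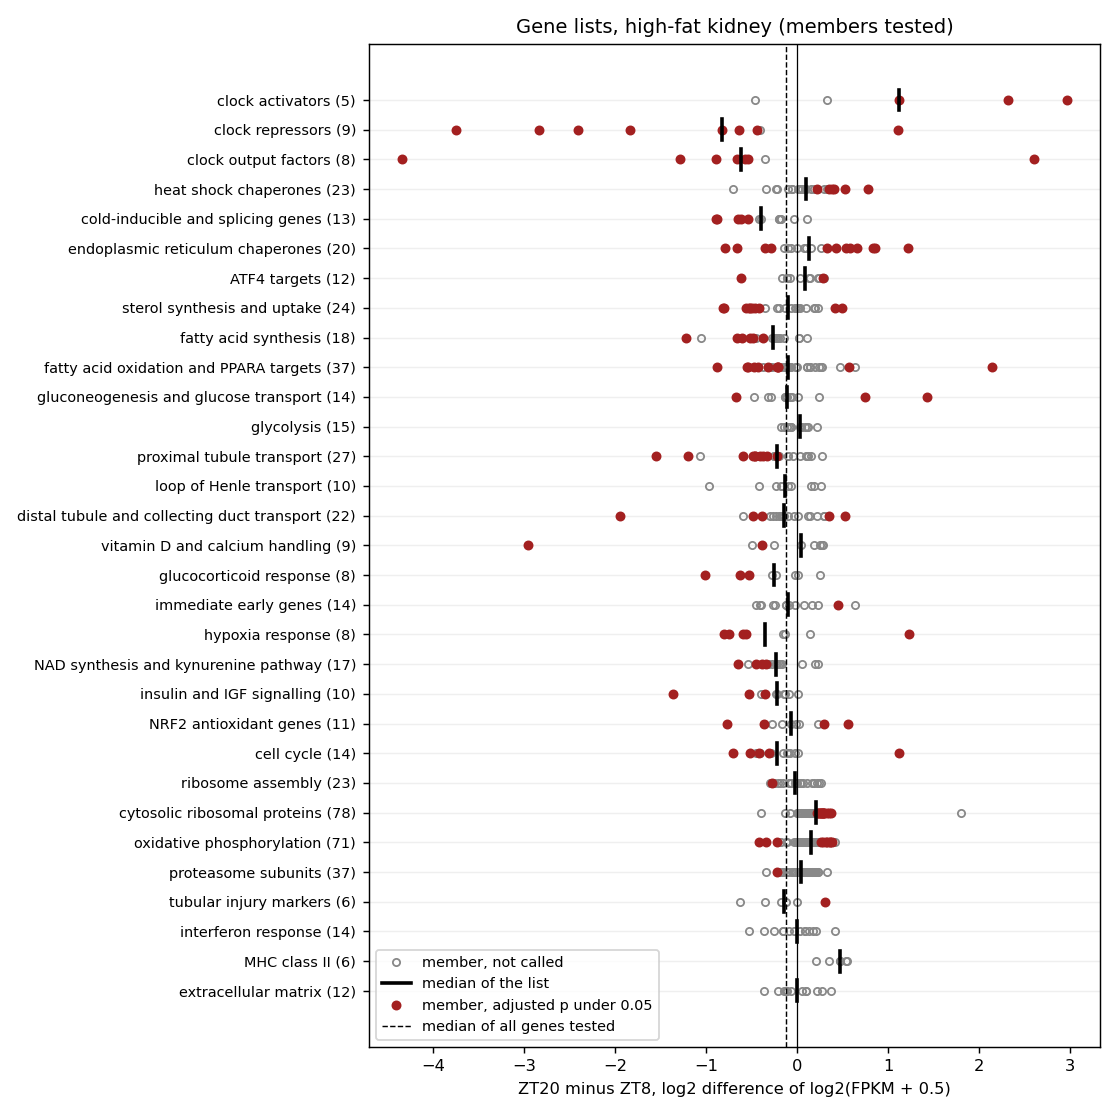
Differences between ZT20 and ZT8 (x axis, log2) of the tested members of each gene list (rows, number tested in brackets). Filled points passed the test, open points did not, heavy ticks are list medians and the dashed line is the median of all genes, -0.12; among the lists plotted the clock repressors have the lowest median (-0.83).

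In fatty acid synthesis 6 of 18 fell and none rose, both as deposited and after rescaling, and the count was 3 without ZT20 replicate 4. The list median was -0.27 log2. Acss2, which makes acetyl-CoA from acetate, was at 141, 118 and 119 FPKM at ZT8 and at 80.01, 82.2 and 85.4 FPKM at ZT20 (-0.60 ± 0.10 log2, adjusted p = 0.00192). Dgat2, which forms triglyceride, and Me1, which supplies NADPH, fell by 0.49 and 0.38 on the log2 scale, and these 3 genes were called in each fit that left out a library. Gpam, which starts glycerolipid synthesis, had the largest difference of the list, from 5.23, 3.83 and 3.16 FPKM to 1.88, 1.42 and 1.08 FPKM (-1.22 ± 0.32 log2, adjusted p = 0.0205), and lost its call without ZT8 replicate 1 or ZT20 replicate 4.

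Sterol synthesis was mixed. Of 24 members 8 fell and 2 rose, with 5 and 2 after rescaling, and the median, -0.10 log2, was near that of all genes. Among all genes tested 13.7% fell and 3.44% rose, or 6.80% and 7.74% after rescaling. Sc5d, a late enzyme of the pathway, went from 14.4, 16.3 and 13.2 FPKM to 9, 10.7 and 9.48 FPKM (-0.56 ± 0.10 log2, adjusted p = 0.0024) and was called in each fit that left out a library. Fdps and Pmvk, enzymes of the middle of the pathway, rose by 0.49 and 0.42 log2. The falls numbered 1 without ZT8 replicate 1, 4 without ZT20 replicate 1 or ZT20 replicate 3, and 5 without ZT20 replicate 4. The rises numbered 0 without ZT8 replicate 1 or ZT20 replicate 4, and 1 without ZT20 replicate 3.

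Fatty acid oxidation and PPARA targets had 9 falls and 2 rises among 37, but 3 of each after rescaling. The shares over all genes tested were 13.7% falls and 3.44% rises, or 6.80% and 7.74% after rescaling. Ppara, the nuclear receptor that induces oxidation, was at 15.0, 15.8 and 11.8 FPKM at ZT8 and at 7.23, 7.37 and 7.67 FPKM at ZT20 (-0.88 ± 0.18 log2, adjusted p = 0.00595), opposite in direction to Ppard. Cpt1a, which admits fatty acids to mitochondria, went from 87.8, 93.6 and 71.8 FPKM to 60.5, 59.9 and 51.4 FPKM (-0.55 ± 0.11 log2, adjusted p = 0.00731). Both kept their call in each fit that left out a library, and Acadm, a dehydrogenase of the pathway, lost it without ZT8 replicate 1. The list's falls numbered 3 without ZT8 replicate 1 and 4 without ZT8 replicate 2, ZT20 replicate 1, ZT20 replicate 3 or ZT20 replicate 4. The rises were Ppard and Acot1, and 1 remained without ZT8 replicate 2, ZT8 replicate 5 or ZT20 replicate 4.

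Among 14 genes of glucose production and transport, Slc16a1 and G6pc rose and Slc2a5 fell. Slc2a5, a fructose transporter of the proximal tubule, was at 47.7, 42.0 and 37.4 FPKM at ZT8 and at 26.9, 25.8 and 26.4 FPKM at ZT20 (-0.67 ± 0.13 log2, adjusted p = 0.00618). G6pc, which releases free glucose, had overlapping groups and lost its call without ZT8 replicate 2, ZT8 replicate 5, ZT20 replicate 1 or ZT20 replicate 4. None of 15 glycolysis genes passed in the deposited values by limma, and 1 was higher after rescaling.

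Transport genes of the proximal tubule were lower at ZT20 where they were called. Of 27 tested 10 fell, with a median of -0.23 log2, and 6 fell and 1 was higher after rescaling. Over all genes tested 13.7% fell, or 6.80% after rescaling, and the median was -0.12 log2. Besides Slc6a19, Slc9a3, the sodium and proton exchanger that recovers sodium and bicarbonate, went from 5.83, 4.19 and 3.46 FPKM to 1.45, 1.35 and 0.800 FPKM (-1.55 ± 0.34 log2, adjusted p = 0.00962). Its call was lost without ZT8 replicate 1 (adjusted p = 0.0544). Abcc2, an organic anion pump, fell by 0.48 ± 0.11 on the log2 scale and was also lost without that library. Slc6a19 was the member still called without ZT8 replicate 1, where the count was 1. The count was 4 without ZT8 replicate 2 or ZT20 replicate 4, 5 without ZT20 replicate 1 and 6 without ZT20 replicate 3. It was 12 without ZT8 replicate 5.

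In the loop of Henle none of 10 transport genes passed by limma as deposited, and 3 were higher after rescaling. Of 22 genes of the distal tubule and collecting duct, 3 fell and 2 rose, or 3 and 5 after rescaling. The falls as deposited were near the share of all genes tested, 13.7% (6.80% after rescaling). Rises made up 3.44% of all genes tested, or 7.74% after rescaling. Aqp2, the water channel controlled by vasopressin, was at 115, 90.6 and 98.7 FPKM at ZT8 and at 59.7, 75.8 and 82.7 FPKM at ZT20 (-0.48 ± 0.12 log2, adjusted p = 0.017). Avpr2, the vasopressin receptor, went from 10.5, 7.94 and 9.29 FPKM to 12.5, 12.1 and 16.0 FPKM (0.52 ± 0.12 log2, adjusted p = 0.0131). The groups of neither gene overlapped. Aqp2 lost its call without ZT8 replicate 1 or ZT20 replicate 1, and Avpr2 without ZT8 replicate 2 or ZT20 replicate 4. The falls of this list numbered 0 without ZT8 replicate 1 and 1 without ZT20 replicate 1, and the rises 0 without ZT8 replicate 2 or ZT20 replicate 4 and 1 without ZT8 replicate 1 or ZT20 replicate 3.

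Beside Cyp24a1, 1 further gene of 9 in the vitamin D and calcium list was called. Vdr, the vitamin D receptor, had a difference of -0.39 ± 0.12 log2 (adjusted p = 0.0353), which was lost after rescaling and, among the 6 fits that left out a library, kept only without ZT8 replicate 5. Cyp27b1, which makes the active hormone, was at 0.700, 0.878 and 0.429 FPKM at ZT8 and at 0.603, 0.976 and 1.09 FPKM at ZT20 and did not pass (adjusted p = 0.532).

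Smaller lists held single genes that were called whichever library was left out. Cdkn1a, the p21 inhibitor of the cell cycle, went from 2.97, 2.11 and 2.87 FPKM to 6.31, 8.04 and 4.90 FPKM (1.12 ± 0.19 log2, limma adjusted p = 0.00248). Ccnd1, which encodes cyclin D1, went from 43.9, 55.1 and 46.6 FPKM to 27.9, 33.4 and 27.7 FPKM (-0.70 ± 0.13 log2, limma adjusted p = 0.00349). Igfbp1 and Igfbp3, which bind insulin-like growth factors, fell by 1.37 and 0.52 on the log2 scale. Hmox1 and Srxn1, antioxidant genes of the NRF2 pathway, rose by 0.56 and 0.29 log2, and Mt2, a metallothionein induced by glucocorticoids, fell by 0.63 on the log2 scale. Bnip3, a mitophagy gene induced by low oxygen, fell by 0.59 on the log2 scale, against the rise of Ndrg1 from the same list. These 8 genes and Ndrg1 were called in each fit that left out a library. With the spread of all 36 libraries, Igfbp1 and Mt2 lost their call (limma adjusted p = 0.135 and 0.105).

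In the lists behind them, 1 rose and 4 of 14 cell cycle genes fell, 3 of 10 insulin and IGF genes fell, 2 rose and 2 of 11 NRF2 genes fell, 3 of 8 glucocorticoid response genes fell, 1 rose and 4 of 8 hypoxia genes fell, and 4 of 17 genes of NAD and kynurenine metabolism fell. After rescaling the falls numbered 3, 2, 1, 2, 3 and 4 in the same order, and the rises were as before. Over all genes tested 13.7% fell and 3.44% rose, or 6.80% and 7.74% after rescaling. Counts this small in short lists can lie near those shares. Without ZT8 replicate 1 there were 1 cell cycle, 0 NRF2, 1 glucocorticoid, 1 hypoxia and 1 NAD fall. Without ZT20 replicate 4 the NRF2 falls numbered 0, the glucocorticoid and NAD falls 1 each and the hypoxia falls 2. Cell cycle falls were 2 without ZT8 replicate 2 or ZT20 replicate 3, hypoxia falls 2 without ZT8 replicate 2 or ZT20 replicate 1, and NRF2 falls 1 without ZT8 replicate 5, ZT20 replicate 1 or ZT20 replicate 3. The NAD falls, Nmrk1, Nnt, Qprt and Kmo, numbered 0 without ZT8 replicate 2 and 2 without ZT20 replicate 1. Without ZT8 replicate 5 there were 6 NAD falls and 5 cell cycle falls. Of 14 immediate early genes Ier5 rose, a call lost without ZT8 replicate 2, ZT8 replicate 5, ZT20 replicate 3 or ZT20 replicate 4.

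Genes of the translation and respiration machinery had small median differences, but these lay above the -0.12 log2 of all genes. Over all genes tested 3.44% rose and 13.7% fell, or 7.74% and 6.80% after rescaling. Of 78 cytosolic ribosomal protein genes 14 rose as deposited and 51 after rescaling, with a median of 0.21 log2. The rises numbered 0 without ZT8 replicate 1, ZT20 replicate 3 or ZT20 replicate 4. They numbered 5 without ZT8 replicate 2, 7 without ZT8 replicate 5 and 21 without ZT20 replicate 1. With the GC trend removed there were 10, and with the replicate number as a block 25. Several of these genes have near-identical copies elsewhere in the genome, so their counts are uncertain. Of 71 oxidative phosphorylation genes 7 rose and 3 fell, or 21 and 1 after rescaling, with a median of 0.16 log2 as deposited. No rise was called without ZT8 replicate 1, ZT8 replicate 2, ZT20 replicate 3 or ZT20 replicate 4. The rises numbered 8 without ZT8 replicate 5 and 5 without ZT20 replicate 1. The falls numbered 0 without ZT8 replicate 1 or ZT20 replicate 4 and 1 without ZT8 replicate 2 or ZT20 replicate 1. By limma none of 14 interferon response genes and none of 12 matrix genes passed, 1 proteasome gene of 37 fell, 1 of 23 ribosome assembly genes fell, and Clu was the 1 of 6 injury markers that rose. These 3 single calls were all lost without ZT8 replicate 1 and without ZT20 replicate 4.

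Transcripts of other cell types were read in the same 6 libraries. Kidney markers differed in level. Umod, the defining protein of the thick ascending limb, was at 934 to 1210 FPKM at ZT8 and at 872 to 997 FPKM at ZT20. Slc12a1, of the loop of Henle list, was at 117, 42.0 and 53.1 FPKM at ZT8. At ZT20 it was at 38.4, 30.1 and 29.3 FPKM, and it did not pass (limma adjusted p = 0.0659). Nphs1, at 1.78 to 3.18 FPKM, was called higher and Aqp2 lower, and both calls were lost without ZT8 replicate 1. Adipoq, the fat cell hormone adiponectin, was at 4.58, 14.7 and 22.1 FPKM at ZT8 and at 17.0, 13.8 and 0.0963 FPKM at ZT20, and the 14 white adipocyte markers summed to 386 to 942 FPKM at ZT8 and 295 to 554 FPKM at ZT20, with Cd36 as the only member called (lower; lost without ZT8 replicate 1 or ZT20 replicate 4). Ucp1, which defines brown fat, was at 73.9 FPKM in ZT8 replicate 5 and at most 7.84 FPKM in the other 5 libraries. With an adipocyte score as a covariate 323 genes rose and 1332 fell. Adrenal markers summed to less than 1 FPKM in each library, with Cyp11b1, Cyp11b2, Hsd3b1, Th and Pnmt listed at 0 in all 6, and skeletal muscle and urothelium markers also summed to less than 1 FPKM. The hemoglobin gene Hbb-bs ranged from 0.00357 FPKM in ZT20 replicate 1 to 25.7 FPKM in ZT8 replicate 2.

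Of 9 macrophage markers tested 3 rose, or 4 after rescaling, 1 with the GC trend removed (Cd68) and 0 with the replicate number as a block. The 10 markers in the table summed to 95.1 to 114 FPKM at ZT8 and to 123 to 188 FPKM at ZT20, without overlap. C1qb, C1qc and Cd68 were the 3 that rose, by 0.75, 0.72 and 0.68 log2, and Csf1r had a difference of -0.42 log2 that did not pass (adjusted p = 0.101). None of the 3 was called without ZT8 replicate 1, ZT8 replicate 2, ZT8 replicate 5, ZT20 replicate 3 or ZT20 replicate 4, and 2 markers of the list were called without ZT20 replicate 1. MHC class II genes, which antigen-presenting cells express, had a median of 0.47 log2 with 0 of 6 called by limma, 2 after rescaling and 4 without ZT20 replicate 1. Cd74 of this list was at 260, 238 and 241 FPKM at ZT8 and at 261, 394 and 450 FPKM at ZT20. Of 3 lymphocyte markers tested Cd79a rose, a call lost without ZT8 replicate 2, ZT8 replicate 5, ZT20 replicate 1 or ZT20 replicate 4, and none of 5 endothelial markers passed as deposited. The part of these cells in the differences above was not tested.

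A comparison chosen after the data were seen set the neighbours of ZT20 (ZT16 and ZT0) against those of ZT8 (ZT4 and ZT12) in the other 12 high-fat libraries. Relative to the median of all genes, 45.4% of the rises and 39.9% of the falls had the same sign there, near or below the 50% of all genes. Of the 83 rises of at least 1.5-fold 60 had the same sign (72.3%), but of the 353 falls of that size 157 (44.5%). The sign was also the same in 11 of the 12 largest rises and in all 12 of the largest falls by the naming rule. With the GC trend removed the shares were 61.0% of 308 rises and 55.1% of 1480 falls.

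Arntl stood at means of 6.72, 1.05, 0.340, 0.607, 4.05 and 6.06 FPKM from ZT0 to ZT20, so ZT8 was its lowest time and ZT20 lay near its highest. Nr1d1 was highest at ZT4 (34.3 FPKM) and lowest at ZT16 (2.55 FPKM), and Dbp was highest at ZT8 and lowest at ZT20. Ppard was low from ZT4 to ZT12, at 4.90 to 7.18 FPKM, and high at ZT20 (23.4 FPKM) and ZT0 (21.9 FPKM). The single-time shape of Slc6a19 was different, with means of 37.2 to 42.7 FPKM at the 4 times not compared, 66.7 FPKM at ZT8 and 28.3 FPKM at ZT20.

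**Figure D4:**
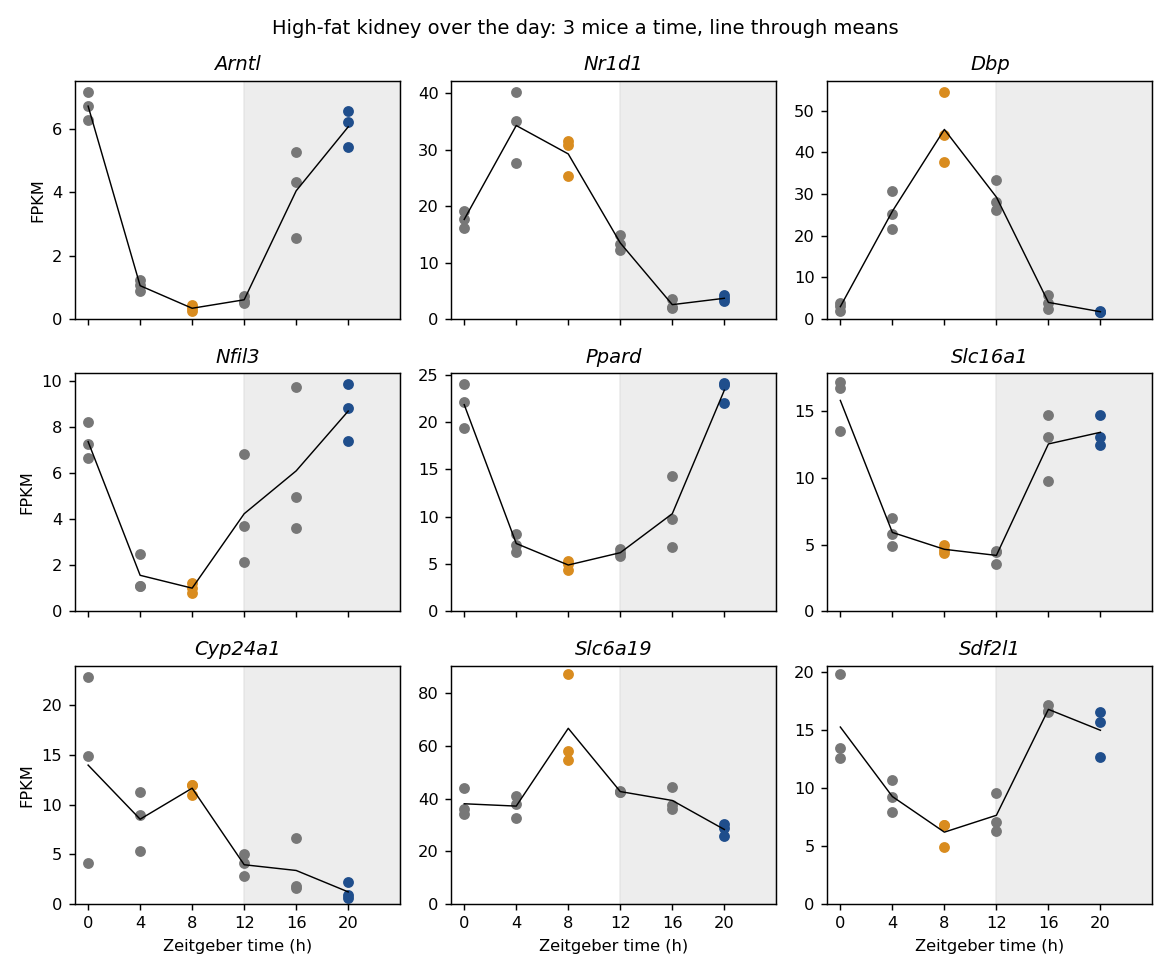
FPKM (y axes, linear) of 9 named genes in the 18 high-fat libraries against zeitgeber time (x axes, hours; grey marks darkness), with ZT8 in orange, ZT20 in blue and a line through the means of 3 mice. Arntl, Ppard and Slc16a1 are low from ZT4 to ZT12 and high at ZT20 and ZT0, Dbp is highest at ZT8, and Slc6a19 is highest at ZT8 and lowest at ZT20.

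The title of the series concerns the change of daily cycles by a high-fat diet, so the same contrast was taken in the 6 normal chow libraries of ZT8 and ZT20. The difference between the diets was tested over all 36 libraries in 1 fit. By limma 0 of 11144 genes passed (0%). An unadjusted p under 0.05 was found in 200 genes, fewer than the 557 expected if no gene differed. In this fit 115 genes rose (1.03%) and 383 fell (3.44%) under the high-fat diet, and 145 rose (1.30%) and 277 fell (2.49%) under normal chow, with the spread of all groups pooled. Normal chow libraries, which the calls above did not use, had 371 of the 381 rises (97.4%) and 1400 of the 1513 falls tested there (92.5%) on the same side of the median of all genes. A p that misses the threshold does not show that the diets act alike.

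For the core genes the values of the diets stood as follows. Arntl differed by 2.97 ± 0.18 log2 under the high-fat diet and by 3.01 ± 0.17 log2 under normal chow (difference between the diets -0.04 ± 0.25 log2, SE). Dbp differed by -4.34 and -4.41 log2 (difference 0.07 ± 0.35), and Ppard by 2.15 and 2.37 log2 (difference -0.22 ± 0.29). Nr1d1 differed by -2.83 log2 under the high-fat diet and by -3.47 log2 under normal chow (difference 0.64 ± 0.38, unadjusted p = 0.107). Sdf2l1 rose by 1.22 and 1.83 log2 (difference -0.61 ± 0.30, unadjusted p = 0.0531).

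Cyp24a1 had the largest gap between the diets among the 41 clock, output and largest-change genes, and the only unadjusted p under 0.05 among them. Under normal chow it was at 7.57 ± 4.92 FPKM at ZT8 and at 7.51 ± 7.85 FPKM at ZT20 (SD, n = 3), a difference of -0.32 ± 0.67 log2, against -2.96 log2 under the high-fat diet. The difference between the diets was -2.64 ± 0.95 log2 with an unadjusted p of 0.00983, and it did not pass over all genes (limma, adjusted p = 1). The SD under normal chow was larger than the mean at ZT20.

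**Figure D5:**
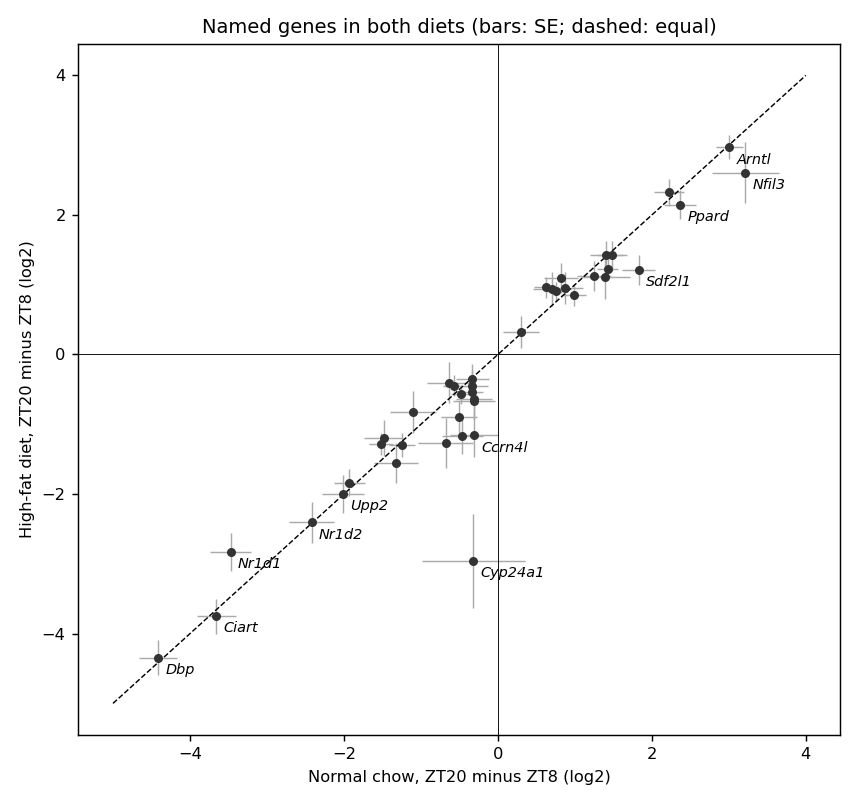
ZT20 minus ZT8 difference (log2) of the 41 clock, output and largest-change genes under normal chow (x axis) and under the high-fat diet (y axis), both from the fit of all 36 libraries, with bars of 1 SE and a dashed line of equal values. Most genes lie along the line, from Dbp at the lower left to Arntl at the upper right, and Cyp24a1 lies farthest from it.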

How the data were processed

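RNA of 36 mouse kidneys was measured, of which 6 libraries form the main comparison. TRIzol extraction and TruSeq RNA library preparation were used, per the labels' protocols. The submitters' processing notes name the build mm10 and the tools CASAVA 1.8.2, Cuffnorm and Bowtie, the last 2 with versions not given in the sources used here. The authors deposited FPKM for 24883 rows per diet. Rows of symbols listed more than once (817 rows) were left out. Absolute depth is unknown; relative depth came from the steps of low values of 1044 genes (96.3% within 0.05 of whole multiples).

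Genes whose FPKM averaged at least 1 were tested as log2(FPKM + 0.5) with limma 3.58.1 in R 4.3.3, with a mean-variance trend, over the 18 high-fat libraries as 6 groups, so all times share the spread; the diet difference used 36 libraries as 12 groups. Differences are on this scale, which understates low genes. Adjusted p-values are Benjamini-Hochberg over all genes tested, with a threshold of 0.05. The test was tried on simulated data first. Replicates are separate mice by the series text. Members, lists and tests were chosen with earlier results of these data known. Named were all clock and output genes, the 12 largest rises and falls (FPKM averaging at least 5, groups apart, unnamed models left out) and up to 4 members per list by p. Members named beyond this rule, such as Hspa5, Hyou1, Gpam, Cyp27b1 and Cd74, were chosen after their values were seen. Some genes that the rule takes are left out of the text but stayed in each test and count. Gene positions follow GENCODE M21 (GRCm38, equal to mm10) and are 1-based. Alternatives were other pseudocounts, filters, scalings, priors and sample sets, GC correction, a replicate block, an adipocyte covariate and leave-outs; GC correction together with rescaling, normal chow leave-outs and the alternatives for normal chow were added after the data were seen.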

Additional observations from a re-analysis of the deposited data

How the results depend on the processing

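The high-fat contrast gave 1896 calls. Left out in turn, the 6 libraries gave 479 to 1885 calls, lowest without ZT8 replicate 1 and ZT20 replicate 4. Without a filter on low values there were 1244 calls (258 higher, 986 lower), and with the spread of all 36 libraries 498, of which 496 were among the 1896. Rescaling moved the balance of directions: 857 higher and 753 lower by median ratio, 865 and 769 by upper quartile, and 693 and 729 by median ratio with the GC trend removed, against 381 and 1515 as deposited. Other pseudocounts, a minimum of 5 FPKM, no trend, a robust prior, the GC trend removed, the adipocyte covariate and a fit of the 6 libraries alone gave 1524 to 1912 calls. No direction of the 110 called genes among those named was reversed under any alternative; 53 kept their call in all 6 leave-outs, 98 after rescaling, 93 with the GC trend removed and 63 with the spread of all 36 libraries. The diet difference gave 0 calls under each alternative run. The normal chow contrast gave 422 calls, 737 with the GC trend removed, 660 with the GC trend removed and the replicate block, and 209 to 386 when a normal chow library was left out. Where a value changed, the cause was not tested.

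No paired analysis was possible between ZT8 and ZT20 themselves because they share 1 replicate number. With the number as a replicate block over all 18 high-fat libraries there were 2856 calls (493 higher, 2363 lower), and 2507 with the GC trend removed as well. Deviations from group means were correlated over 26 pairs of libraries with the same number at different times. The median correlation was 0.029 (-0.19 to 0.44), against -0.0049 for pairs with different numbers. A median with this range cannot show whether some mice of the same number shared a cage, litter or batch. Low values were limited most by the depth of ZT20 replicate 3.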
